A study of Mus musculus with 12 samples.

Results

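Haematopoietic stem and progenitor regulators are described here by 10 genes, Kit, Hlf, Mecom, Meis1, Procr, Myb, Spi1, Cebpa, Gfi1b and Runx1, among the 37620 genes of the count table. The 10 were listed by symbol and matched to their Ensembl identifiers, and the rule that lists them uses no measured value, although earlier results of these data were known when they were chosen. All 10 were in the table, and all 10 passed the filter on low counts in every comparison. The libraries were labelled as bone endothelial cells (BECs) of tibia from c57/Bl6 mice, an inbred laboratory strain, purified by endomucin, a surface protein of bone capillaries. They came from females and males of 2 and 65 weeks, called young and old here, with 3 libraries in each of 4 groups, and no allele or agent was named for any group. The labels do not say whether a library was made from 1 mouse or from several, so p-values measure the spread between these libraries. The study's methods describe a choice of samples by the quality of their RNA.

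Blood cells are made in the marrow by haematopoietic stem cells, which lie beside the vessels that endothelial cells form, and stem cells of the embryo arise from endothelium itself. Several of these regulators are therefore known in both lineages. A small network of transcription factors keeps stem cells in an unspecialised state, and rising levels of lineage factors such as PU.1, C/EBPα and GFI1B then direct progenitors towards myeloid or erythroid and megakaryocyte fates. Of the members, Kit and Procr encode surface receptors. Hlf, Mecom, Meis1, Runx1 and Myb encode transcription factors of stem cells and early progenitors. Spi1, Cebpa and Gfi1b encode transcription factors of lineage choice.

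Promoter sequences were available in the RefSeq table (GRCm38.p6, 250 bases before to 50 bases after each gene start) as 12 entries for 9 of the members, with no entry for Spi1. The promoters of Kit and Procr are shown because these members passed the test between ages in both sexes, in opposite directions. That of Meis1 is shown because its libraries did not overlap between the sexes at 65 weeks, as for 15.5% of all genes. The edgeR test did not call this difference (adjusted p = 0.258). Capitals mark letters that matched a searched motif. The Kit window is chr5:75574741-75575040, plus strand, and it held no searched motif.
Kit: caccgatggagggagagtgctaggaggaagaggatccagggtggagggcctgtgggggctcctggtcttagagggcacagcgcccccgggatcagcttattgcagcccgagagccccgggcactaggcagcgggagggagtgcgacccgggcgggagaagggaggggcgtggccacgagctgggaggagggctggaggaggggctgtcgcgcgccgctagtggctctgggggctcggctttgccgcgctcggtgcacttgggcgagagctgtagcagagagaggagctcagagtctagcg
The Procr window is chr2:155750967-155751266, plus strand. Its capitals mark a C/EBP match at position -242 and an E-box match at -34, counted from the gene start.
Procr: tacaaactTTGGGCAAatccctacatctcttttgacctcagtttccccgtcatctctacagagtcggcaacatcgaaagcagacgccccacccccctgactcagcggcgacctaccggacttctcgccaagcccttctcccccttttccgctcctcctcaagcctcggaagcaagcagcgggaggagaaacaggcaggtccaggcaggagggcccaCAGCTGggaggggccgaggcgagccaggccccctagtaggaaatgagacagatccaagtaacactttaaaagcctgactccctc
The Meis1 window is chr11:19018920-19019219, minus strand. Its capitals mark a RUNX match at -166 and a MYB match at -30.
Meis1: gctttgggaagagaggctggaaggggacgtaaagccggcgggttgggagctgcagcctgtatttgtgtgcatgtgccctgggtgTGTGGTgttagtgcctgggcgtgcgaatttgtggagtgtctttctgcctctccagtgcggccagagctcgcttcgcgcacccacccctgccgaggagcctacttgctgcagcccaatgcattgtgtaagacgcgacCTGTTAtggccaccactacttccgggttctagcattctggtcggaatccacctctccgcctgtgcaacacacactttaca

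Motifs were searched on both strands. The GATA motif was taken as AGATAA, and the ETS motif as GAGGAAGT. The RUNX motif was spelled TGTGGT, while MYB was matched by either AACGG or the longer form CNGTTA. The C/EBP motif was TTGCNNAA, that of MEIS was TGACAG, that of PAR bZIP factors was TTACNTAA and the E-box was CAGCTG. The GFI1 motif was searched as well. MYB letters were in 4 of the 12 member promoters, beside 35.2% of all 32851 promoters of the table. RUNX letters were in 2 of 12, beside 16.8%, namely in that of Meis1 and at positions 28 and 36 of the upstream Runx1 promoter. Matches of different motifs did not overlap in these windows. C/EBP, MEIS and E-box letters were each in 1 of 12, beside 10.8%, 19.2% and 16.3%. GATA, ETS, GFI1 and PAR bZIP letters were in 0 of 12, beside 11.2%, 3.2%, 2.82% and 2.32%. The median GC content of the member promoters was 62.8%, beside 52.7% over the table. The 2 Runx1 promoters differed in this, with 45% in the upstream window and 69% in the downstream window. These matches describe letters only and are no evidence of binding.

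Total counts per library ran from 26044743 to 44569600. Levels are given as CPM, which are counts scaled to a common library total. The label was compared with cell type markers before the members were examined. The summed level of 12 endothelial genes was 2350 to 4320 CPM at 2 weeks and 157 to 261 CPM at 65 weeks, and all 12 had counts in every library. The 4 pan-leukocyte genes summed to 1130 to 1350 CPM at 2 weeks and to 2380 to 3160 CPM at 65 weeks. The 10 erythroid genes summed to 30900 to 58100 CPM at 2 weeks and to 31600 to 48700 CPM at 65 weeks. The libraries therefore held blood cell transcripts at both ages, and endothelial transcripts were low in the 65-week libraries. In such bulk samples, fewer cells of a type and less RNA per cell cannot be told apart. Male 65-week replicate 3 stood apart from the other libraries of its group. It had 117 counts of Xist, the transcript of the inactive X chromosome, against 3 and 0 in the other male 65-week libraries and 3527 to 4442 in females of that age. Its 10 B cell genes summed to 1890 CPM, against 565 and 439 CPM in replicates 1 and 2, and its 10 neutrophil genes to 18400 CPM, against 27200 and 25800 CPM. Results that rest on this library are given with and without it.

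**Figure D1:**
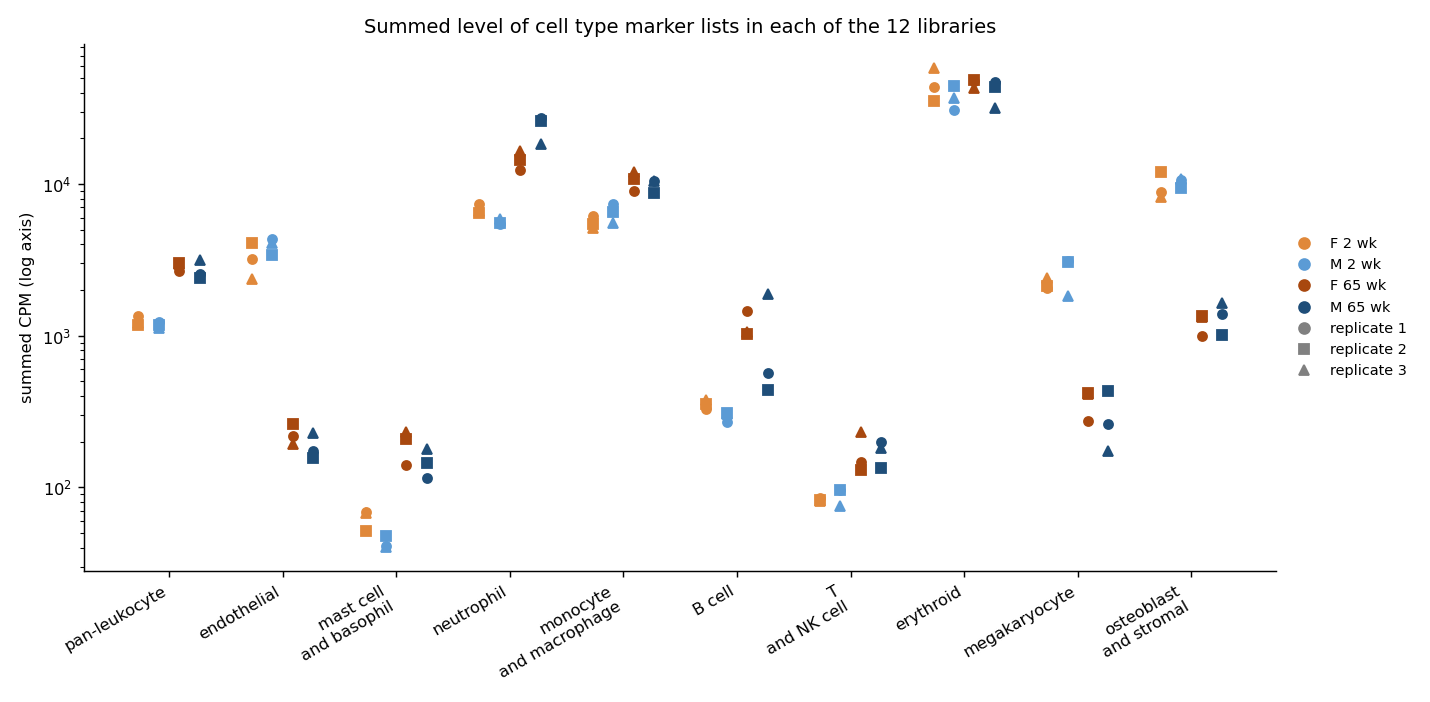
Summed CPM (log axis) of 10 cell type marker lists in each of the 12 libraries, coloured by sex and age, with the replicate given by the shape of the point. The endothelial, megakaryocyte and osteoblast lists lie lower at 65 weeks in every library, the pan-leukocyte and neutrophil lists lie higher, and the erythroid list overlaps between ages.

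Among the receptors, Kit (ENSMUSG00000005672, GRCm39 chromosome 5, 75735576 to 75817404, plus strand) was higher at 65 weeks in both sexes and Procr (ENSMUSG00000027611, chromosome 2, 155593031 to 155597397, plus strand) was lower in both. Kit is the receptor of stem cell factor on stem cells, progenitors and mast cells. Its level in 2-week females was 38.0, 38.9 and 30.6 CPM, and in 65-week females 68.1, 52.2 and 47.2 CPM. Male libraries had Kit at 36.0, 36.3 and 36.4 CPM when young and at 52.7, 45.6 and 56.3 CPM when old. All 6 of the older libraries lay above all 6 of the younger libraries. The log2 fold change of Kit was 0.78 in females (edgeR adjusted p = 0.00228, SE 0.146) and 0.62 in males (edgeR adjusted p = 0.00129, SE 0.099), or 1.71-fold and 1.54-fold. The 10 mast cell and basophil genes summed to 40.3 to 69.2 CPM at 2 weeks and to 116 to 231 CPM at 65 weeks, with Tpsab1 at 0 in all 12 libraries. Most of the difference in this sum lay in Hdc, the enzyme of histamine synthesis, which averaged 24.3 ± 4.85 CPM in young and 130 ± 44.3 CPM in old females, and 15.8 ± 0.841 CPM in young and 110 ± 15.6 CPM in old males (mean ± SD of 3 libraries). Fcer1a passed the test as well, with means of 0.191 CPM in young and 3.81 CPM in old females, and 0.0577 CPM in young and 1.62 CPM in old males, whereas Mcpt8, Prss34, Ms4a2 and Cpa3 did not pass in either sex and the other 4 genes were too low to be tested. Their part in the level of Kit was not tested. Cpa3, a protease of mast cells, averaged 5.07 ± 0.671 CPM in young and 6.26 ± 3.51 CPM in old females, and 3.87 ± 0.652 CPM in young and 5.04 ± 1.76 CPM in old males (mean ± SD of 3 libraries), and it did not pass the test in either sex (edgeR adjusted p = 0.331 and 0.157).

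Procr encodes the endothelial protein C receptor (EPCR), which is carried by endothelium and also marks stem cells of mouse marrow. Females had 11.1, 14.1 and 9.19 CPM at 2 weeks and 6.37, 6.92 and 6.82 CPM at 65 weeks. The male libraries had 16.6, 12.5 and 17.4 CPM when young and 6.88, 3.11 and 9.71 CPM when old. The ages did not overlap within either sex, although male 65-week replicate 3 lay above the lowest 2-week female. Procr was 1.55-fold lower in females (log2 fold change -0.64, SE 0.167, edgeR adjusted p = 0.0116) and 2.20-fold lower in males (log2 fold change -1.13, SE 0.353, edgeR adjusted p = 0.0268). The call in males was lost without male 2-week replicate 1 (edgeR adjusted p = 0.0744), male 2-week replicate 3 (0.0831) or male 65-week replicate 1 (0.0683), and that in females in a model of all 12 libraries (0.0824). The sum of the 12 endothelial genes given above differed between ages by more than Procr did. Cdh5, the cadherin of endothelial junctions, had a mean of 590 CPM (SD 159) in young and 11.8 CPM (SD 2.5) in old females, and 737 CPM (SD 85.7) in young and 12.7 CPM (SD 1.81) in old males (n = 3 each). The part of the endothelial change in that of Procr was not tested.

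**Figure D2:**
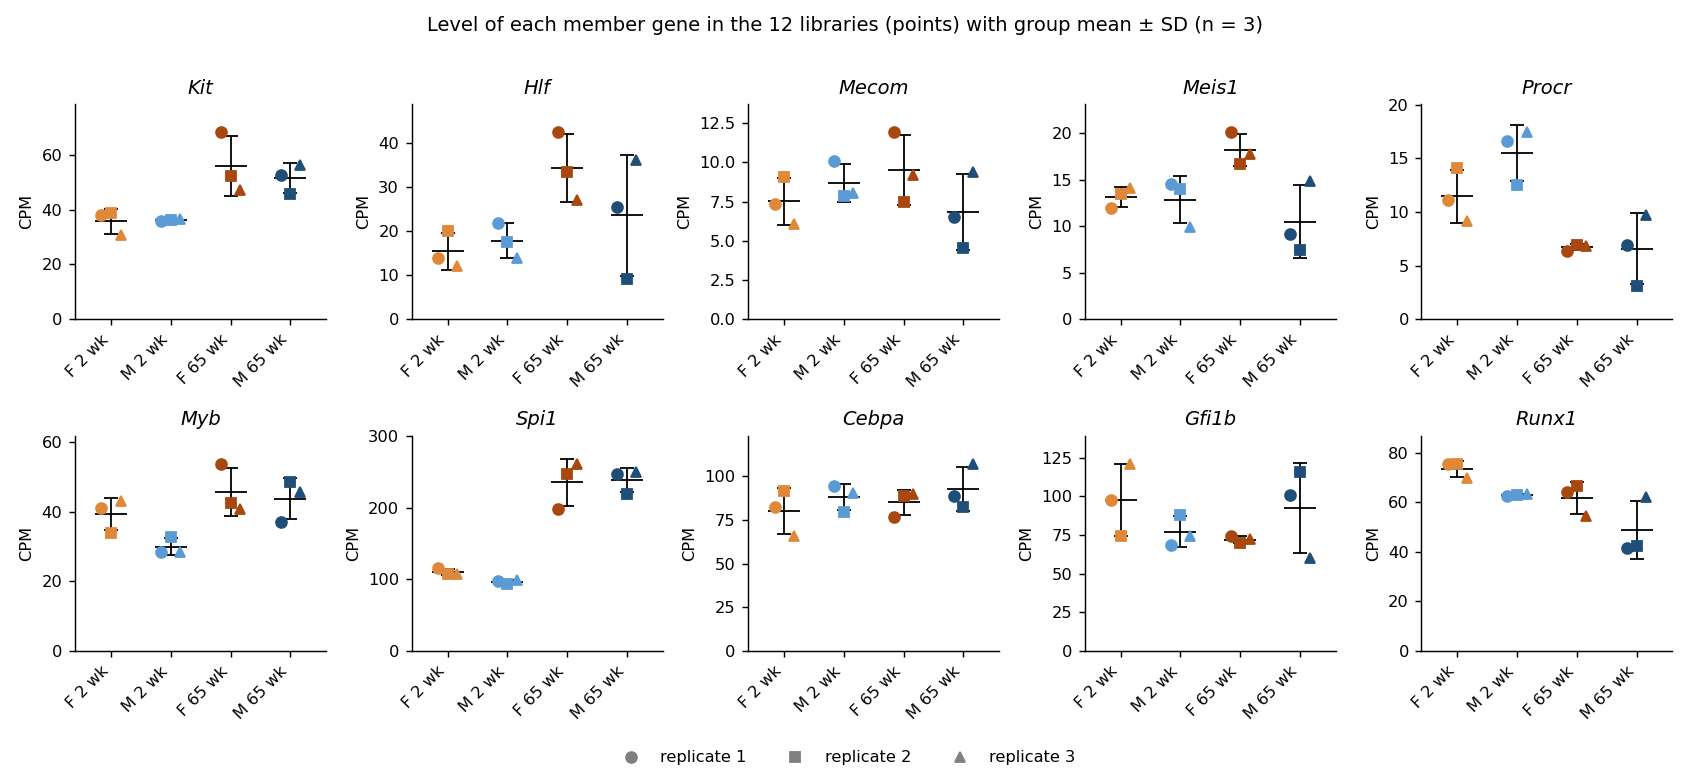
CPM of each member gene in the 12 libraries, by sex (F, M) and age (2 or 65 weeks), with the group mean and SD (n = 3) as a black bar and each axis from 0. Spi1 shows the widest gap between ages, at 93.8 to 115 CPM against 198 to 261 CPM, and male 65-week replicate 2 is the lowest library of its group for Hlf, Mecom, Meis1 and Procr.

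Among the transcription factors of stem cells, Hlf and Meis1 were higher at 65 weeks in females and did not pass the test in males. Hlf (ENSMUSG00000003949, chromosome 11, 90227221 to 90281761, minus strand) encodes a PAR bZIP factor that marks haematopoietic stem cells. In females it was at 14.0, 20.2 and 12.2 CPM at 2 weeks and at 42.5, 33.6 and 27.2 CPM at 65 weeks. The older female libraries all lay above the younger, and its log2 fold change was 1.30 (edgeR adjusted p = 0.00104, SE 0.211), the highest estimate of the 10 members in females. The males had Hlf at 22.0, 17.6 and 14.0 CPM at 2 weeks and at 25.5, 9.08 and 36.3 CPM at 65 weeks. The older males held both a lower and a higher library than any younger male, and the log2 fold change was 0.50 (edgeR adjusted p = 0.346, SE 0.426). Without male 65-week replicate 2 it was 0.88 (edgeR adjusted p = 0.012, SE 0.214), and without male 65-week replicate 3 it was 0.09 (edgeR adjusted p = 0.859, SE 0.396), so the value in males rested on single libraries.

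Meis1 (ENSMUSG00000020160, chromosome 11, 18829817 to 18969749, minus strand) encodes a homeobox partner of HOX proteins that stem cells need for their upkeep. Its level was 12, 13.5 and 14.1 CPM in 2-week females and 20.1, 16.7 and 17.8 CPM in 65-week females, without overlap. The log2 fold change in females was 0.60 (edgeR adjusted p = 0.00287, SE 0.118). In males the level was 14.6, 14 and 9.94 CPM at 2 weeks and 9.22, 7.41 and 14.9 CPM at 65 weeks, so that the ages overlapped. The log2 fold change in males was -0.18 (edgeR adjusted p = 0.575, SE 0.262), and without male 65-week replicate 3 it was -0.50 (edgeR adjusted p = 0.0734, SE 0.213). Exons of Meis1 overlap those of the antisense genes Gm16140 and Gm16141, whose counts were at most 6.88% and 1.23% of those of Meis1, and the use of strand in counting is not stated.

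Mecom (ENSMUSG00000027684, chromosome 3, 30005439 to 30602157, minus strand), which encodes the zinc finger factor EVI1 of stem cells, was the lowest member per kb of exon in every group. It was at 7.35, 9.08 and 6.09 CPM in 2-week females and at 11.9, 7.45 and 9.18 CPM in 65-week females. In males it was at 10.1, 7.87 and 8.06 CPM at 2 weeks and at 6.51, 4.56 and 9.41 CPM at 65 weeks. The ages overlapped in both sexes, and the log2 fold changes were 0.48 in females (edgeR adjusted p = 0.0797, SE 0.21) and -0.24 in males (edgeR adjusted p = 0.453, SE 0.254). An antisense gene, Mecomos, shares 191 exon bases with Mecom and had at most 0.341% of its counts.

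Runx1 (ENSMUSG00000022952, chromosome 16, 92398354 to 92623037, minus strand) is needed for the first stem cells to arise from embryonic endothelium. It was at 75.5, 75.4 and 69.9 CPM in 2-week females and at 64.2, 66.6 and 54.3 CPM in 65-week females. Young males had 62.6, 63.0 and 63.4 CPM and old males 41.6, 42.3 and 62.2 CPM. All older libraries lay below the younger libraries of their sex, by a narrow margin in male replicate 3. Runx1 nevertheless did not pass the test in females (log2 fold change -0.12, SE 0.0944, edgeR adjusted p = 0.313) or males (-0.26, SE 0.14, edgeR adjusted p = 0.146). The test scales libraries by TMM, which sets the bulk of genes level, whereas CPM use the library total. Scaling by the total alone moved the median over all genes by -0.14 in females and -0.12 in males on the log2 scale, and Runx1 was then called lower in females (log2 fold change -0.25, SE 0.094, edgeR adjusted p = 0.0455). Without male 65-week replicate 3 it was called lower in males under TMM (log2 fold change -0.46, SE 0.0838, edgeR adjusted p = 0.00216).

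Myb (ENSMUSG00000019982, chromosome 10, 21000834 to 21036883, minus strand), a factor of dividing progenitors, was higher at 65 weeks in males. In males it was at 28.5, 32.7 and 28.5 CPM at 2 weeks and at 37.1, 48.5 and 45.7 CPM at 65 weeks, without overlap, and its log2 fold change was 0.66 (edgeR adjusted p = 0.00283, SE 0.124). In females it was at 41, 34 and 43 CPM at 2 weeks and at 53.7, 42.4 and 40.9 CPM at 65 weeks. The female ages overlapped, and the log2 fold change was 0.35 (edgeR adjusted p = 0.0608, SE 0.139). In a model of all 12 libraries Myb was called higher in females (log2 fold change 0.34, edgeR adjusted p = 0.0476). Of 20 cell division genes, 3 were higher and 0 lower in males, namely Mki67, Top2a and E2f1. In females 0 were higher and 1, Mcm3, was lower. Their median log2 fold change was 0.35 in males and -0.02 in females. Of all genes, 27.0% were higher and 28.5% lower in males, and 30.2% were higher and 29.5% lower in females. The cell division genes were thus called less often than genes in general.

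Among the factors of lineage choice, Spi1 was higher at 65 weeks in both sexes, whereas Cebpa and Gfi1b did not pass the test in either. Spi1 (ENSMUSG00000002111, chromosome 2, 90912562 to 90946101, plus strand) encodes PU.1, which drives myeloid and B cell development. It was at 115, 108 and 108 CPM in 2-week females and at 198, 247 and 261 CPM in 65-week females. In males it was at 96.9, 93.8 and 99.0 CPM at 2 weeks and at 247, 219 and 250 CPM at 65 weeks. The ages were far apart in both sexes. The log2 fold change was 1.23 in females (edgeR adjusted p = 5.13e-05, SE 0.114) and 1.42 in males (edgeR adjusted p = 1.46e-05, SE 0.0946), or 2.35-fold and 2.68-fold. The 10 neutrophil genes summed to between 5440 and 7420 CPM when young and between 12400 and 27200 CPM when old. The 10 monocyte and macrophage genes summed to between 5150 and 7390 CPM when young and between 8730 and 12000 CPM when old. Most of the difference in this sum lay in Lyz2, at 2070 ± 344 CPM in young and 5180 ± 983 CPM in old females. In males Lyz2 averaged 1700 ± 200 CPM when young and 5250 ± 508 CPM when old (mean ± SD of 3 libraries). Csf1r, Ctss, Cd68, Adgre1, Ccr2 and Ms4a6c were also higher in both sexes, and C1qa in females alone. Mrc1 passed in neither sex, and Vcam1 was lower in males alone (edgeR adjusted p = 0.0365). The 10 B cell genes summed to between 269 and 377 CPM when young and between 439 and 1890 CPM when old, although Ebf1 and Vpreb3 of that list passed in neither sex. The part of neutrophils, monocytes, macrophages and B cells in the level of Spi1 was not tested.

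Cebpa (ENSMUSG00000034957, chromosome 7, 34818718 to 34821353, plus strand) encodes C/EBPα, which granulocyte and monocyte progenitors require. It was at 82.2, 91.6 and 65.6 CPM in 2-week females and at 76.8, 88.9 and 89.6 CPM in 65-week females. Male levels were 94.1, 79.5 and 90.1 CPM at 2 weeks and 88.5, 82.4 and 107 CPM at 65 weeks. The ages overlapped in both sexes, with log2 fold changes of 0.23 (edgeR adjusted p = 0.131, SE 0.121) and 0.19 (edgeR adjusted p = 0.192, SE 0.112). Related factors passed the test. Cebpb was 5.44-fold higher in females and 4.68-fold in males, and Cebpe, a factor of late granulocyte maturation, was 1.96-fold and 5.35-fold higher (edgeR adjusted p from 1.83e-05 to 0.000575).

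Gfi1b (ENSMUSG00000026815, chromosome 2, 28499462 to 28511994, minus strand) encodes a repressor that erythroid and megakaryocyte cells require. It was at 97.4, 74.2 and 121 CPM in 2-week females and at 74.3, 69.6 and 72.2 CPM in 65-week females. In males it was at 68.7, 88.2 and 74.1 CPM at 2 weeks and at 101, 116 and 59.9 CPM at 65 weeks. The log2 fold change was -0.31 in females (edgeR adjusted p = 0.155, SE 0.17) and 0.39 in males (edgeR adjusted p = 0.216, SE 0.25), with overlapping ages in both. Gfi1b was called lower in females without 2-week replicate 2 (log2 fold change -0.52, edgeR adjusted p = 0.00378) and with the library total alone (-0.43, edgeR adjusted p = 0.0412), and higher in males without 65-week replicate 3 (0.62, edgeR adjusted p = 0.00421). The erythroid sum followed the same order as Gfi1b within each 2-week group, whereas in old males only the lowest library was shared. Replicates 1, 2 and 3 had 43300, 35100 and 58100 CPM among young females, 30900, 44400 and 36600 CPM among young males and 46700, 43800 and 31600 CPM among old males, so that the lowest library was the same for Gfi1b and for this sum in each. In old females the sums were 47800, 48700 and 42600 CPM, and the lowest library was not the same. The 10 megakaryocyte genes summed to between 1820 and 3120 CPM when young and between 173 and 431 CPM when old. The part of erythroid cells and megakaryocytes in the level of Gfi1b was not tested.

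In all, 4 members were higher and 1 lower at 65 weeks in females, 5 of 10, where 59.7% of 15120 genes were called (30.2% higher and 29.5% lower). In males 3 were higher and 1 lower, 4 of 10, where 55.5% of 14959 genes were called (27.0% higher and 28.5% lower). The members' counts in either direction were thus a little below the share of all genes, and those of higher members a little above it. In females 4568 genes were higher and 4462 lower under TMM, against 3668 and 5451 with the library total alone, and in males 4041 and 4257, against 3304 and 4865. The libraries of the ages did not overlap for 6 of 10 members in females, beside 69.2% of all genes, and for 5 of 10 in males, beside 65.4%.

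**Figure D3:**
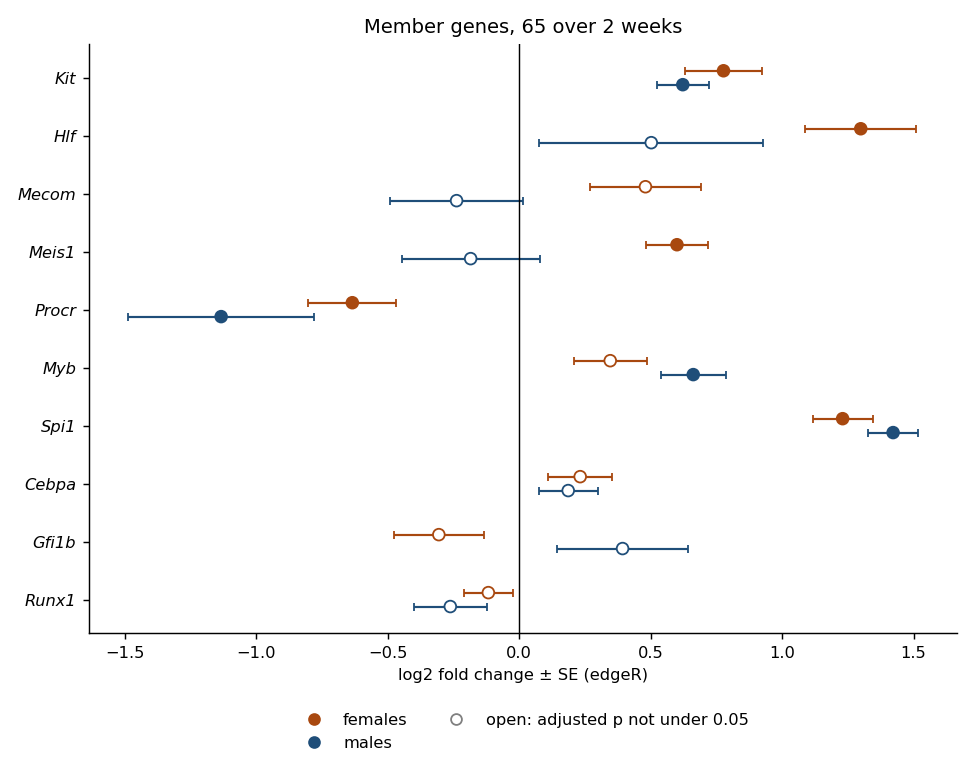
Log2 fold change (65 over 2 weeks) with its SE from edgeR for each member gene in females and males, where filled points have an adjusted p under 0.05. Kit and Spi1 lie to the right and Procr to the left of 0 with filled points in both sexes, Hlf and Meis1 are filled in females and Myb in males.

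Other stem cell genes moved in both directions. Of 20 further stem cell transcription factors, 9 were higher and 6 lower in females and 4 were higher and 5 lower in males, with median log2 fold changes of 0.22 and 0.00. Nkx2-3 averaged 0.527 ± 0.104 CPM in young and 4.08 ± 1.5 CPM in old females, and 0.712 ± 0.211 CPM in young and 2.46 ± 1.27 CPM in old males (mean ± SD of 3 libraries). Gfi1, a relative of Gfi1b in granulocytes and stem cells, was 1.66-fold higher in females and 3.67-fold in males. Zfp521 was 13.9-fold and 10.4-fold lower, and Hoxa10 was 3.29-fold and 6.72-fold lower. Of 20 further receptors and signalling genes of stem and progenitor cells, 4 were higher and 12 lower in females and 3 were higher and 12 lower in males, with median log2 fold changes of -1.49 and -1.69. Tek, the angiopoietin receptor, was 18.2-fold lower in females and 31.8-fold lower in males, and Robo4 was 19.0-fold and 24.0-fold lower. Both stand in the endothelial marker list as well. Kitl, which encodes the ligand of Kit, averaged 183 ± 37.9 CPM in young and 42.9 ± 7.91 CPM in old females, and 218 ± 19.3 CPM in young and 50.2 ± 14.3 CPM in old males (mean ± SD of 3 libraries), and it was 3.88-fold and 4.03-fold lower (edgeR adjusted p = 4.22e-05 and 8.66e-05). Ligand and receptor thus moved in opposite directions. Cd48 and Rab44 were the furthest risers of this list, at 2.31-fold and 1.77-fold in females and 1.59-fold and 4.15-fold in males.

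Of 26 partners and relatives of the members, 16 were higher and 5 lower in females and 11 were higher and 2 lower in males, with median log2 fold changes of 0.61 and 0.45. Cbfb, the subunit that RUNX1 binds DNA with, was 1.42-fold higher in females (edgeR adjusted p = 0.00105) and had a log2 fold change of 0.09 in males (edgeR adjusted p = 0.600). Runx2, the bone-forming relative of Runx1, was 1.47-fold and 1.84-fold lower, and Tef, a PAR bZIP relative of Hlf, was 1.67-fold and 1.96-fold lower. Of 16 erythroid and megakaryocyte progenitor genes, 5 were higher and 4 lower in females and 7 were higher and 4 lower in males. The 4 lower genes were the platelet lineage genes Pf4, Gp9, Vwf and Itgb3 in both sexes, with Gp9 6.36-fold and 8.64-fold lower, and Apoe and Car1 were the furthest risers, at 3.59-fold and 1.71-fold in females and 2.55-fold and 3.08-fold in males. The median log2 fold changes were 0.19 and 0.32. Of 15 granulocyte and monocyte progenitor genes in the table, 7 were higher and 2 lower in females and 12 were higher and 3 lower in males, with medians of 0.41 and 1.51. Csf3r, the receptor of G-CSF, was 3.00-fold and 7.03-fold higher, and Elane, a granule protease, was 1.62-fold and 5.58-fold higher. Igfbp4, which encodes a binding protein of insulin-like growth factors, was 12-fold and 8.65-fold lower, and Cd34, a surface protein of progenitors and vessels, was 6.83-fold and 14.9-fold lower. Of 12 early lymphoid progenitor genes, 4 were higher and 2 lower in females and 4 were higher and 5 lower in males, with medians of -0.25 and -0.56. Lax1 and Pax5 rose most (7.02-fold and 3.24-fold in females, 7.63-fold and 5.36-fold in males), and Pax5 stands in the B cell marker list as well. Dntt and Igll1, which act early in B cell development, were 3.61-fold and 5.83-fold lower in females and 4.76-fold and 6.21-fold lower in males. The comparisons of lists are counts without a test of the list. They stand beside 59.7% of all genes called between ages in females and 55.5% in males.

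The members were also related to Ptprc, which encodes CD45, the surface phosphatase of leukocytes. Ptprc averaged 179 ± 19.8 CPM in young and 648 ± 32.2 CPM in old females, and 146 ± 2.73 CPM in young and 565 ± 106 CPM in old males (mean ± SD of 3 libraries). It rose by 3.97-fold in females and 4.18-fold in males, more than the estimate of any member. Any gene that rose by less than Ptprc has a lower ratio to it, so a lower ratio is not particular to the members. The ratio of member to Ptprc was lower at 65 weeks for all 10 members, without overlap of the 6 older and 6 younger libraries. For Spi1 it went from a median of 0.648 (range 0.573 to 0.689) to 0.381 (0.324 to 0.467), and for Kit from 0.242 (0.176 to 0.254) to 0.0884 (0.0701 to 0.111). For Hlf it went from 0.108 (0.0696 to 0.152) to 0.0496 (0.0188 to 0.0695), so that the ages nearly touched. The widest fall was that of Procr, from 0.0856 (0.0527 to 0.122) to 0.0105 (0.00646 to 0.0142). With the sum of 4 pan-leukocyte genes in place of Ptprc, the ages overlapped for Kit, Hlf and Spi1, and the other 7 members were still lower in all older libraries. The ratio of Spi1 to this sum had a median of 0.0862 at 2 weeks and 0.085 at 65 weeks. The choice of leukocyte reference therefore set the size of the difference, and the ratios are given without a test. The share of all genes without overlap in such a ratio was not computed for either reference.

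**Figure D4:**
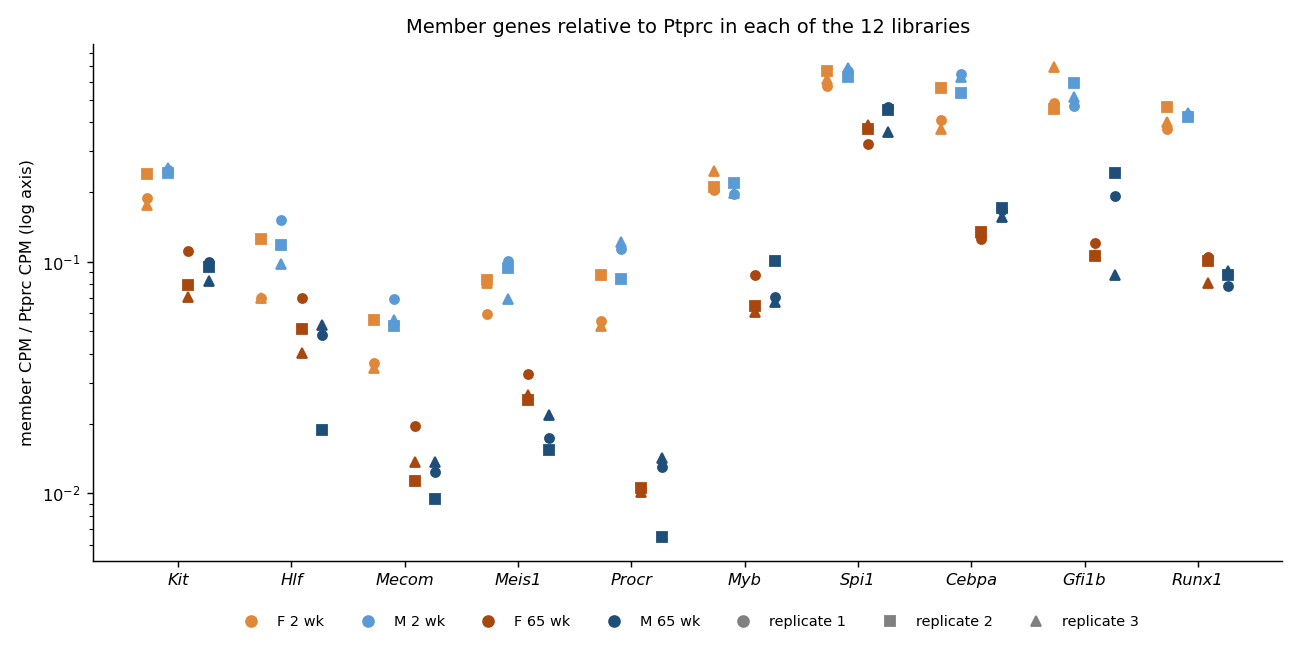
CPM of each member gene divided by the CPM of Ptprc in the same library (log axis), coloured by sex and age, with the replicate given by the shape of the point. For every member the 6 libraries of 65 weeks lie below the 6 of 2 weeks, nearest each other for Hlf and farthest apart for Procr.

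Levels were compared between members per kb of exon, since longer transcripts give more reads. On that scale, Gfi1b, Spi1 and Cebpa were the 3 most abundant members in every group, at 30.3 to 79.0 CPM per kb as group means, and the other 7 were at 0.546 to 7.59 CPM per kb. Gfi1b led at 2 weeks, at 53.2 CPM per kb in females and at 42.1 in males. Spi1 led at 65 weeks, at 78.0 CPM per kb in females and 79.0 in males. Meis1 and Mecom came last in each group, at 0.932 to 1.61 and 0.546 to 0.762 CPM per kb. In 2-week females the libraries of Runx1, Procr, Myb and Kit overlapped with their neighbours in this order, so their order was not resolved, and the same held for Kit, Myb, Hlf and Runx1 in 65-week females. In 2-week males Cebpa and Spi1 overlapped. In 65-week males overlaps joined Gfi1b to Cebpa, Meis1 to Mecom, and Kit, Myb, Runx1, Hlf and Procr to one another in turn. With the longest transcript as the length in place of all exons, Spi1 came before Gfi1b at 2 weeks. Their libraries overlapped in both sexes, so this order was not resolved. Procr had rank 4 in 2-week males, at 7.59 CPM per kb, and rank 8 in both groups of 65 weeks, at 3.28 and 3.22 CPM per kb.

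The sexes were compared within each age, which is the comparison the study was designed for. At 2 weeks 0 of 10 members were called (edgeR, where 0.0332% of 15081 genes were called). DESeq2 called 1, Runx1, and 453 of the 15081 genes in all. In the edgeR test 4 members had an unadjusted p under 0.05, as did 2683 of the 15081 genes. The 4 were Runx1 (log2 fold change of males over females -0.24, SE 0.0635, edgeR adjusted p = 0.213), Myb (-0.41, SE 0.121, adjusted p = 0.222), Spi1 (-0.21, SE 0.0681, adjusted p = 0.23) and Procr (0.42, SE 0.168, adjusted p = 0.265). For Runx1, Myb and Spi1 all male libraries lay below all female libraries, 3 of 10 members, beside 21.7% of all genes without overlap. For Kit the means were 35.8 CPM (SD 4.55) for females and 36.2 CPM (SD 0.19) for males, and the log2 fold change was 0.00 (SE 0.0919).

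At 65 weeks 0 of 10 members were called (edgeR, where 0.042% of 14287 genes were called), and 2 had an unadjusted p under 0.05, as did 1479 of the 14287 genes. DESeq2 called 1 member, Meis1, and 398 of the 14287 genes in all. Meis1 had a mean of 18.2 CPM (SD 1.75) for females and 10.5 CPM (SD 3.93) for males, and each male library lay below each female library, which held for 1 of 10 members, beside 15.5% of all genes. Its log2 fold change was -0.82 (edgeR adjusted p = 0.258, SE 0.232; DESeq2 adjusted p = 0.0432). The log2 fold change of Runx1 was -0.36 (edgeR adjusted p = 0.463, SE 0.153). The remaining log2 fold changes ran from -0.57 for Hlf (SE 0.409) to 0.36 for Gfi1b (SE 0.234). Without male replicate 3, edgeR called 3 members, where 5.65% of 14700 genes were called. Meis1 (log2 fold change -1.11, SE 0.172, adjusted p = 0.0147) and Runx1 (-0.54, SE 0.112, adjusted p = 0.0342) were lower in males and Gfi1b (0.61, SE 0.0854, adjusted p = 0.011) was higher. That fit has 2 male libraries, and the cause of the difference was not tested.

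**Figure D5:**
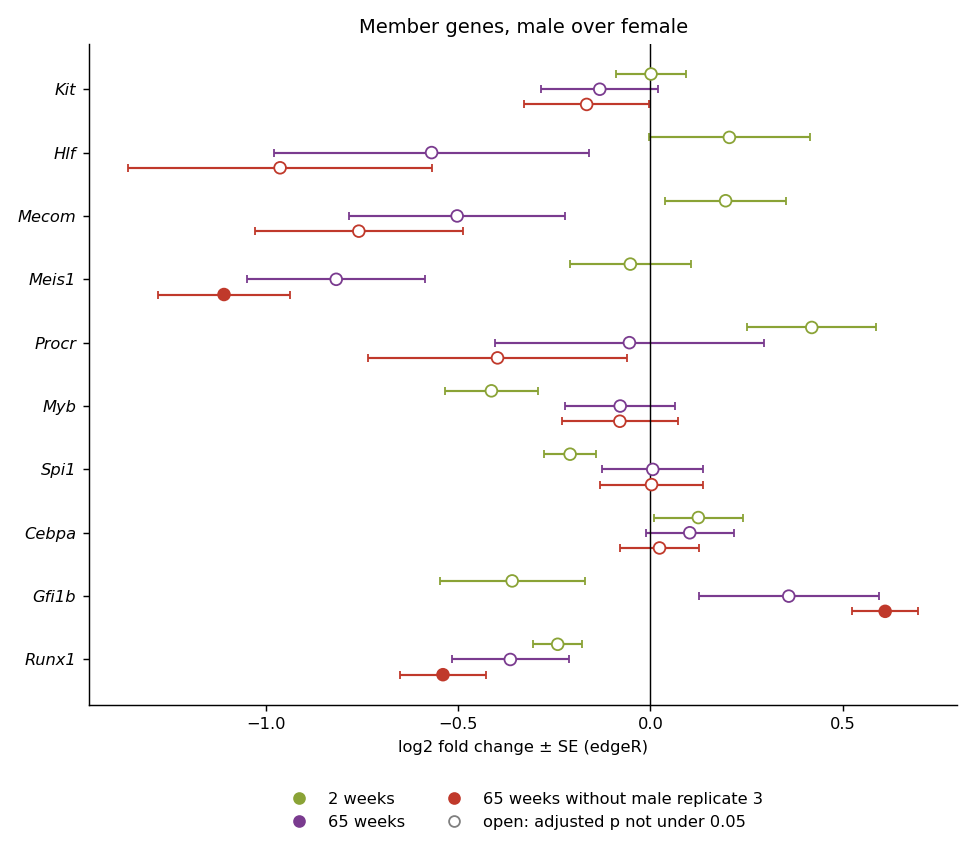
Log2 fold change (male over female) with its SE from edgeR for each member gene at 2 weeks, at 65 weeks and at 65 weeks without male replicate 3, where filled points have an adjusted p under 0.05. Filled points appear for Meis1, Gfi1b and Runx1, and only in the fit without that library.

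An interaction term was fitted to ask if the difference between sexes depended on age. No member passed, 0 of 10 (edgeR, where 0.00635% of 15747 genes were called). DESeq2 called 0 members and 394 of the 15747 genes. In the edgeR test 1 member had an unadjusted p under 0.05, as did 1880 of the 15747 genes. That 1 was Meis1, with a log2 interaction of -0.79 (edgeR adjusted p = 0.33, SE 0.304). Gfi1b had the largest positive interaction, 0.69 (edgeR adjusted p = 0.432, SE 0.325). Members called in females alone or males alone were therefore not shown to differ between the sexes, Hlf (-0.79, SE 0.533, edgeR adjusted p = 0.584) and Myb (0.31, SE 0.19, edgeR adjusted p = 0.547) included. In the fit that left out male 65-week replicate 3, the interaction passed for Meis1 (-1.06, SE 0.247, edgeR adjusted p = 0.0383) and Gfi1b (0.97, SE 0.241, edgeR adjusted p = 0.0467), where 4.66% of 16089 genes were called.

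The 2 genes with the pattern most like that of each member were found among 12964 genes of at least 1 CPM on average, as the smallest root mean square difference between log2 (CPM + 0.5) profiles over the 12 libraries, each centred on its mean. Gfi1b lay nearest to Gata1 (0.0923) and Alad (0.0967), and Spi1 to Apbb1ip (0.0609) and Adss1 (0.0749). Kit lay nearest to Bahd1 (0.111) and Edem1 (0.115), and Myb to Vars1 (0.0772) and Taok3 (0.0871). Cebpa lay nearest to Dennd5a (0.0578) and Ifngr2 (0.0667), and Runx1 to Gbf1 (0.106) and Tnks (0.111). Procr lay nearest to Kifap3 (0.136) and Nudt14 (0.176), Meis1 to Gbp3 (0.157) and Kcnmb4 (0.176), and Mecom to Ccdc69 (0.148) and Wdr25 (0.155). Hlf lay farthest from its nearest gene, Prrg4 (0.189), and then Lrrn4 (0.249). No member was among the 2 nearest genes of another member.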

How the data were processed

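RNA of 12 libraries labelled as bone endothelial cells was sequenced as read pairs (100 nt). The authors deposited raw counts per gene for all libraries in 1 table of 37620 genes, not normalised. The methods of the study name STAR, featureCounts and GRCm39, whereas the submitters' processing notes name TopHat2, HTSeq and mm9. Which of these made the deposited counts was not resolved, and the annotation release and the use of strand are not given in the sources used here. The label names polyA RNA and the protocol a total RNA kit. Of the Ensembl IDs, 31052 were found in GENCODE M39 (GRCm39), from which symbols, exon lengths and coordinates were taken, and 6568 were not. Azu1 of the granulocyte and monocyte list had no match.

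Libraries were grouped by the sex and age in their labels. Genes were tested with edgeR 4.0.16 in R 4.3.3 (TMM scaling; filterByExpr at its default minimum count, 10; the quasi-likelihood F test without covariates), with Benjamini-Hochberg adjustment over all genes tested and a threshold of 0.05. Ages were compared within the 6 libraries of each sex, sexes within the 6 libraries of each age, and the interaction over all 12. SEs were derived from the F statistic. CPM were computed from the deposited counts by the library total, and CPM per kb by the exon union. Replicates within a group differed by more than sampling noise. The members and lists were chosen with earlier results of these data known. All 10 members were named in every comparison. Of each further list the 2 furthest risers and 2 furthest fallers called in both sexes, of at least 1 CPM on average, were named. Cdh5, Cpa3, Hdc and the other mast cell genes were named beside a member after their values were seen. The same holds for Lyz2 and the other monocyte and macrophage genes, Ebf1, Vpreb3, Kitl, Cbfb, Pf4, Vwf and the cell division genes. The fit was checked on simulated data. The alternatives were DESeq2 1.42.0, other scalings and filters, thinning to the smallest library, a model of all 12 libraries, a threshold of 0.01, a block for the replicate number and fits without each library.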

Additional observations from a re-analysis of the deposited data

How the results depend on the processing

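Of 140 values over 10 members and 14 alternatives in each comparison of ages, 133 kept their direction and side of the threshold in females and 133 in males, as did 131 between the sexes at 2 weeks, 130 at 65 weeks and 184 of 190 in the interaction. No called value reversed. With the sexes compared at 2 weeks, the DESeq2 test called 1 member in place of 0, and at 65 weeks it also called 1 in place of 0. It called 453 and 398 genes in all there, against 5 and 6 with edgeR, and 394 against 1 in the interaction. Leaving out 1 library at a time gave 0 to 3 members between the sexes at 65 weeks and 0 to 2 in the interaction, and both upper values came from the fit without male 65-week replicate 3 (830 and 750 genes in all). Of all genes between the sexes at 65 weeks, 105 were called with no filter on low counts, 254 in a model of all 12 libraries, 10 with the library total alone and 15 without male 65-week replicate 2. At 2 weeks 11 genes were called without female 2-week replicate 2, and 8 without male 2-week replicate 3 or in a model of all 12 libraries. In the interaction 7 genes were called with no filter, 0 with the replicate block or at a threshold of 0.01, and 0 to 2 without any other library. Those alternatives called 0 members. Between ages in females, 7 members were called with the library total alone, Gfi1b and Runx1 being added as lower. That setting called 9119 of 15120 genes, of which 5451 were lower. Mecom was added without female 65-week replicate 2 and Myb without replicate 3. The replicate block called 5 members between ages in females and 4 in males, and 0 between the sexes at either age and 0 in the interaction, the same numbers as without it. Libraries of the same number were not paired by their deviations (correlations from -0.584 to 0.254). Thinning all libraries to the smallest total changed no count of members called. The cause of these changes was not tested.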
